A study of Homo sapiens with 24 samples.

Results

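A pair of treatments of 1 cell line was set side by side: HuCCT1 cells given 1.25 µM sorafenib together with 1 µM IACS-010759 (the combination), and HuCCT1 cells given 10 µM sorafenib alone. Each arm had 3 RNA-seq libraries, chosen by cell line and drug label, so the comparison used 6 of the 24 libraries of the series. HuCCT1 is an established human intrahepatic cholangiocarcinoma line kept in RPMI medium. All cells were treated for 72 h, both drugs were dissolved in DMSO, and the labels describe the 3 libraries of an arm as independent biological replicates. HuCCT1 vehicle cells, which received matched DMSO, and cells with 1.25 µM sorafenib alone (3 libraries each) served as reference levels, and the same arms in the gallbladder cancer line OCUG-1 served for comparison between lines. The combination differed from the 10 µM arm both in its sorafenib dose and in holding IACS-010759. The 1.25 µM arm shares the sorafenib dose of the combination. Differences from it thus give the step of adding IACS-010759 and the step of raising the dose. No arm had IACS-010759 alone or with 10 µM sorafenib, so its effect without sorafenib or at the higher dose cannot be told. HuCCT1 is a single line in culture without stroma or immune cells.

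Sorafenib inhibits several kinases, among them RAF kinases and VEGF and PDGF receptors, and at higher doses it also impairs mitochondrial respiration. IACS-010759 blocks complex I, the entry point of NADH electrons into the respiratory chain. Cells with a blocked respiratory chain often raise ATF4, a transcription factor of the integrated stress response that drives amino acid synthesis and transport. Mitochondrial nucleic acids can also set off interferon signalling, which switches on antiviral genes.

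The library totals were 24683342 to 30693736 counts in the combination and 18272014 to 29958426 at 10 µM. Mitochondrial DNA supplied 11.4% ± 1.08 (SD, n = 3) of counts in the combination and 9.88% ± 1.63 at 10 µM (exact two-sided permutation p = 0.3, where 3 against 3 cannot go below 0.10). The 10 µM replicate 3 library stood apart. The variance between its counts and those of 10 µM replicates 1 and 2 was 31.9 and 44.2 times the counting variance (chi-square per degree of freedom). This ratio was 8.90 between these 2 libraries and 4.89 to 10.3 within the combination. This library also lay farthest out on the first principal component (65.6, against 29.5 and 22.9 for the other 10 µM libraries and 12.8 to 20.1 for the combination). Replicate 3 had the lowest mitochondrial share of its arm at 10 µM (8.32%), in vehicle (7.08%) and with 1.25 µM sorafenib (12.5%). In the combination it lay between the other libraries (11.1%). Of 14 biliary markers 11 exceeded 10 CPM (counts scaled to library size) in HuCCT1, while none of 10 endothelial or 10 immune markers did, with summed levels of 6.90 to 7.39 CPM in the combination and 7.63 to 9.64 CPM at 10 µM for the 3 endothelial genes tested. Fibroblast markers summed to 48.3 to 50.8 CPM in the combination and 38.9 to 50.6 CPM at 10 µM, mostly COL1A1 and LUM. Hepatocyte markers summed to 189 to 212 CPM and 168 to 225 CPM, nearly all from SERPINA1. In bulk RNA a smaller number of cells expressing a gene and less of its RNA per cell cannot be told apart.

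Of 19576 genes tested, 1506 differed between the arms (7.69%). A gene was called where the p of edgeR's quasi-likelihood test, adjusted by Benjamini-Hochberg, was below 0.05. The combination was higher for 404 of them (2.06%) and lower for 1102 (5.63%). Most differences were modest: the median size was 0.56 on the log2 scale, and 96 genes called higher and 100 called lower differed by at least 2-fold. The median over all tested genes was 0.00. The libraries of the arms did not overlap in 1498 of the 1506 called genes. A lack of overlap thus adds little for any called gene, and for the genes named by rank it was a condition of naming. Called lower in the combination were 26 of 33 interferon-stimulated genes and 9 of 19 ATF4 stress genes, and called higher were 9 of 21 keratins and mucins and the retinol receptor STRA6. Of 30 mitosis genes 1 was called, and of 40 DNA replication genes 0. The number of calls depended on single libraries: it was 487, 669 and 453 without combination replicate 1, 2 or 3, and 799 without 10 µM replicate 1. Without 10 µM replicate 3, the library that stood apart, 1414 genes were called.

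Calls followed base composition. Among protein-coding genes, the 1057 called lower had a median GC content of 39.5% and the 331 called higher 57.8%, against 48.4% over all 13436 tested. The 3359 genes with the lowest GC content held 730 of the genes called lower, and their median log2 fold change was -0.27, against 0.16 in the 3359 with the highest. Relative to the line's mean profile, the median of high-GC genes minus that of low-GC genes was -0.35, -0.27 and -0.29 in the 3 libraries at 10 µM and 0.09, 0.08 and 0.08 in the combination. In vehicle libraries it was 0.00, 0.11 and 0.01, and with 1.25 µM sorafenib 0.25, 0.16 and 0.12. The 3 libraries at 10 µM were thus the only ones below 0 among the 12. The part of this trend in each gene's difference was not tested, but a fit with a GC offset per library called 463 genes, 147 higher and 316 lower, and its counts are given beside most of the gene groups.

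**Figure D1:**
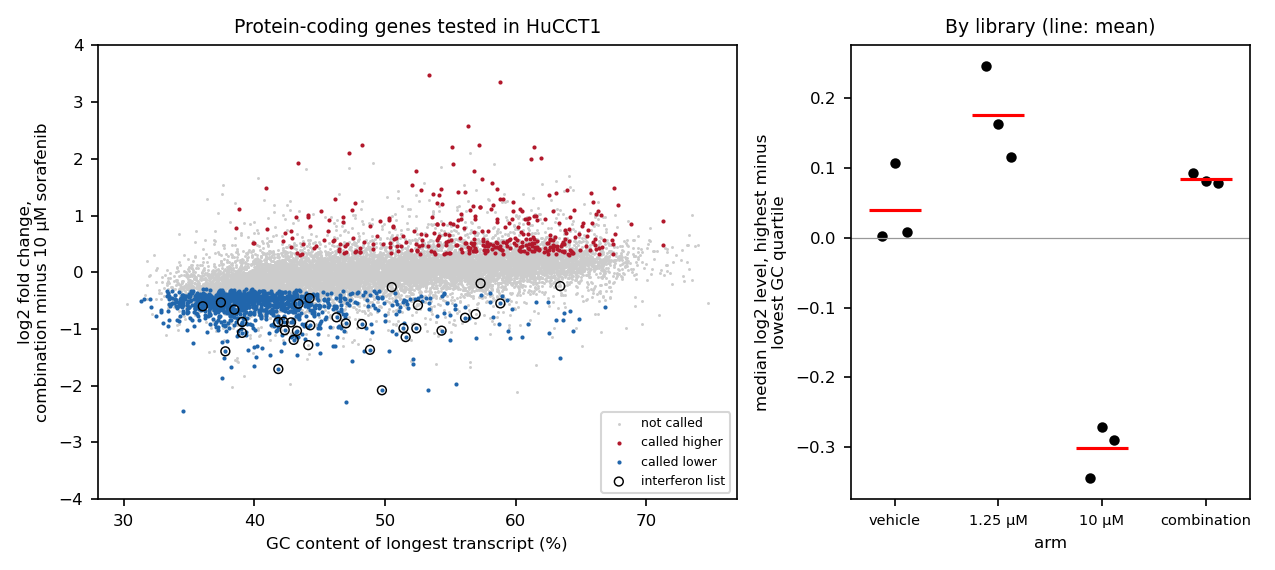
Left: log2 fold change of the combination against 10 µM sorafenib for each protein-coding gene by GC content of its longest transcript, with genes called higher (red), called lower (blue), not called (grey) and the interferon list (circles). Right: median level of the highest minus the lowest GC quartile in each HuCCT1 library, where the 3 libraries at 10 µM lie between -0.35 and -0.27 and the combination libraries between 0.08 and 0.09.

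Interferon-stimulated genes formed the list with the most calls. Of 33 antiviral and interferon-regulated genes, 26 were lower in the combination than at 10 µM and 0 were higher, against 5.63% lower among all genes. Their median log2 fold change was -0.88 (range -2.08 to -0.20), beside 0.00 for all tested genes. In 24 of the 33 all combination libraries lay below all 10 µM libraries, which held for 16.3% of all genes. Both arms lay below vehicle for this list, the combination with a median of -2.00 (32 of 33 called lower, beside 10.1% of all genes) and the 10 µM arm with -1.15 (31 of 33, beside 11.2%). The 1.25 µM arm did not share this level: the list summed to 8472 to 9112 CPM there and 7116 to 9127 CPM in vehicle. It summed to 2215 to 3645 CPM at 10 µM and 1742 to 2057 CPM in the combination. Against 1.25 µM sorafenib, the list's median was -2.24 for the combination and -1.39 for 10 µM. The order of the 4 arms was thus the combination lowest, then 10 µM sorafenib, with the 1.25 µM and vehicle arms overlapping at the top.

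Many promoters of this list carry an interferon-stimulated response element, whose core can be written as TTTC, any 2 bases and TTTC again. In RefSeq promoter windows of 300 bases (GRCh38.p14), this core occurred on either strand in 3.65% of 27305 promoters, in 2.93% of the 12124 that belong to tested genes, in 4.55% of the 879 matched genes called lower and in 1.86% of the 269 called higher. Of the 27 interferon-list genes with a window, 19 (70.4%) held it. Windows of 3 genes called lower are shown for the element, which stands in capitals. Capitals that begin with GAAA are matches on the opposite strand.
IFIT3 (chr10:89327747-89328046, plus strand), shown for a pair of matches close together, reads as follows.
IFIT3: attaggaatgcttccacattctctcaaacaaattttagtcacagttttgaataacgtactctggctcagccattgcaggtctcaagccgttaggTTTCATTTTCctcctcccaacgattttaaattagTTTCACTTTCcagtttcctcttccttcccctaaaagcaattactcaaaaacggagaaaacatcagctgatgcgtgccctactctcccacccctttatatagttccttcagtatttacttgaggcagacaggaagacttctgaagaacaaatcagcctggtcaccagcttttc
OAS3 (chr12:112938224-112938523, plus strand) has its matches on the opposite strand.
OAS3: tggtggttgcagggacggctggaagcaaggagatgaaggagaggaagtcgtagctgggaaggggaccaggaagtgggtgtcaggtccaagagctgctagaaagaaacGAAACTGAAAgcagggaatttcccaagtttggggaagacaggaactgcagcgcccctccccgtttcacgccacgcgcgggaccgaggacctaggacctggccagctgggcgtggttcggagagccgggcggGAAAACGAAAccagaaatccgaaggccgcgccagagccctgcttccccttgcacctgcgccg
IFI44L (chr1:78620198-78620497, plus strand) holds its matches in a stretch that occurs more than once.
IFI44L: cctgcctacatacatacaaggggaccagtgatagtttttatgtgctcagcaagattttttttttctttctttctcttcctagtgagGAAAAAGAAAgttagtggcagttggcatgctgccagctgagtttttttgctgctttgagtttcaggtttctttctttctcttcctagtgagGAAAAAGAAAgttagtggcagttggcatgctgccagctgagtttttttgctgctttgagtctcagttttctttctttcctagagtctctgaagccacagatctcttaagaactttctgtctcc
The windows of CMPK2, RSAD2 and XAF1 held no match to these letters, and MX2 is named only.

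CMPK2, a nucleoside monophosphate kinase of mitochondria (chr2:6840570-6866635, minus strand, GRCh38), had the largest fall among the genes named by rank. Its levels were 2.43, 2.35 and 2.96 CPM in combination replicates 1 to 3 and 15.3, 12.5 and 4.47 CPM at 10 µM. The 3 combination libraries were alike and all lay below 10 µM replicate 3, the lowest of its arm, and the log2 fold change was -2.08 ± 0.36 (SE; adjusted p = 0.00501). Its neighbour RSAD2 (chr2:6865806-6898239, plus strand), which overlaps it at the start and encodes the antiviral enzyme viperin, was at 3.06, 2.00 and 2.46 CPM against 9.36, 9.94 and 5.27 CPM. Its log2 fold change was -1.71 ± 0.22 (adjusted p = 0.000596), with no overlap between the arms. Reads of overlapping genes cannot be told apart unless counting used strand, which is not given in the sources used here.

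Genes that block or sense viral RNA showed the same order of libraries. IFI44L was at 37.5, 24.1 and 38.1 CPM in the combination and 113, 93.9 and 54.3 CPM at 10 µM, where vehicle held 333 ± 66.01 CPM (SD). The arms did not overlap, and the log2 fold change was -1.39 ± 0.24 (adjusted p = 0.00376). MX2, a dynamin-like GTPase that restricts viruses, was at 16.99, 14.7 and 20.8 CPM against 60.9, 48.6 and 25.4 CPM (-1.37 ± 0.24, adjusted p = 0.00452). OAS3, which makes the 2-5A messenger that activates RNase L, was at 112, 104 and 110.3 CPM against 266, 256 and 143 CPM (-1.03 ± 0.17, adjusted p = 0.00215). In all 3 genes 10 µM replicate 3 lay nearest to the combination. IFIH1, the RNA sensor MDA5, did not share that feature, at 38.97, 32.2 and 40.6 CPM against 81.1, 70.3 and 77.4 CPM (-1.03 ± 0.13, adjusted p = 0.00051). XAF1, EPSTI1 and the ribosome-binding IFIT3, which holds back viral translation, had log2 fold changes of -1.19, -1.02 and -0.94.

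Not every antiviral gene separated the arms. MX1, the cytoplasmic counterpart of MX2, was at 93.2, 78.5 and 101 CPM against 238, 206 and 95.4 CPM. It passed the test (-0.99 ± 0.25, adjusted p = 0.029), but 10 µM replicate 3 fell among the combination libraries. IFI6 behaved alike, at 60.3, 44.7 and 54.8 CPM against 118, 105 and 55.1 CPM (-0.80 ± 0.23, adjusted p = 0.0491), and the calls of IFI6 and MX1 were lost in 11 and 8 of 15 alternative settings. ISG15, a ubiquitin-like modifier, was not called, at 125, 96.8 and 112 CPM against 149.8, 159.8 and 85.3 CPM (-0.24 ± 0.23, adjusted p = 0.586). The other 6 members that were not called were HERC5, IFITM3, SAMD9, IFITM1, IFI27 and BST2. Without 10 µM replicate 3 the list had 29 members lower and a median of -1.07. It had 17, 16 and 17 lower without combination replicates 1, 2 and 3, and 16 without 10 µM replicate 1. The list's median GC content was 44.3%, and with the GC offset 19 members were lower and the median was -0.87.

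**Figure D2:**
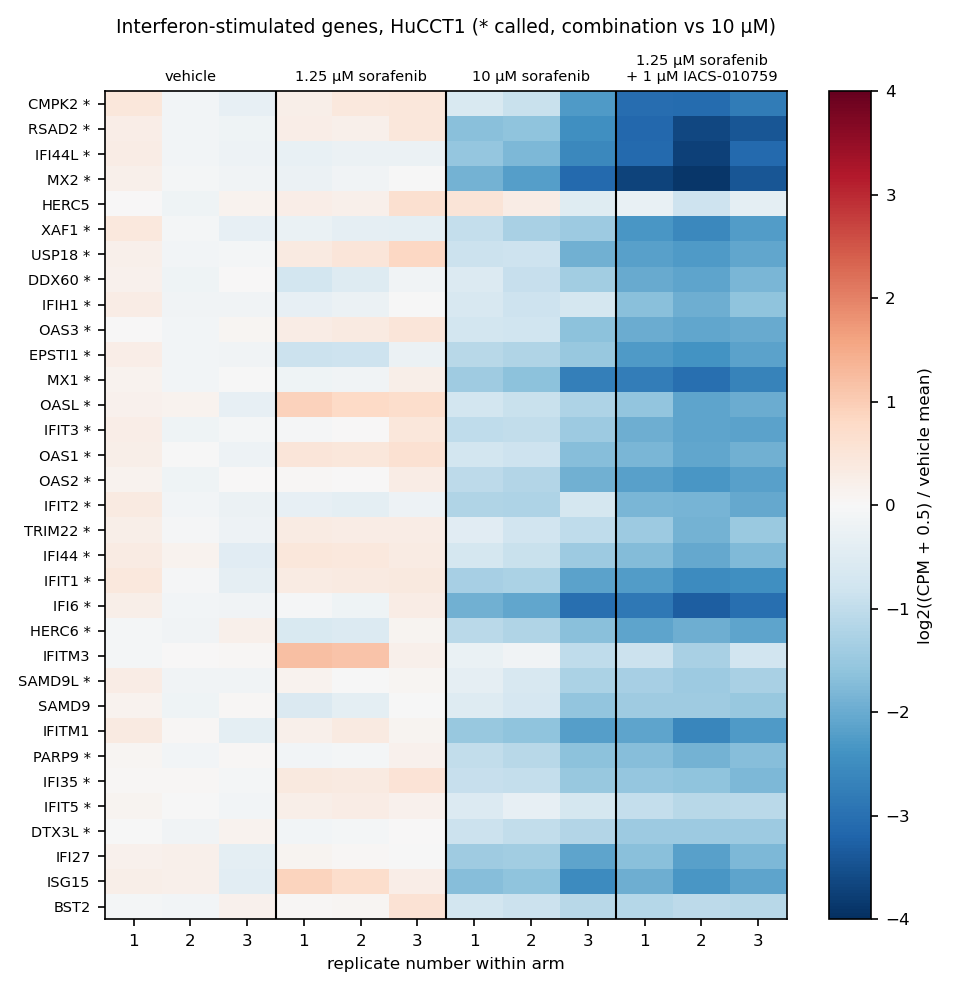
Level of each interferon-stimulated gene in each of the 12 HuCCT1 libraries, as log2 of (CPM + 0.5) relative to the vehicle mean, sorted by the difference between the combination and 10 µM sorafenib, with an asterisk for called genes. The combination columns are the darkest blue for most genes, and in most genes, with IFIH1 and IFIT2 among the exceptions, 10 µM replicate 3 is bluer than the other 2 libraries of its arm.

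Upstream of these genes, 7 of 26 nucleic acid sensors, STATs and interferon regulatory factors were lower and 0 higher (median -0.32). Among all genes 5.63% were lower and 2.06% higher. IRF7, the amplifier of type I interferon induction, had -0.62 ± 0.15 (adjusted p = 0.0221), and the endosomal sensor TLR3, the kinase TBK1 and the receptor chain IFNAR1 had -0.67, -0.42 and -0.35. RIGI and IFIH1 were also among the called members, and IFIH1 is counted in the interferon list too. The list had 8 called lower without 10 µM replicate 3, 2 without combination replicate 1 or 2, 3 without combination replicate 3, 4 without 10 µM replicate 1 and 5 with the GC offset. In MHC class I presentation, a later output of interferon, 0 of 20 genes were called by edgeR in either direction (median -0.17), 2 were lower at an unadjusted p under 0.05, and DESeq2 called 1 lower.

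The NF-kB list, which holds cytokines, chemokines and regulators of inflammatory signalling, was split. Of 32 genes, 9 were lower and 2 were higher (median -0.41), beside 5.63% and 2.06% of all genes. The T cell chemokine CXCL10, itself interferon-regulated, was at 1.29, 0.81 and 0.807 CPM against 3.58, 4.58 and 2.56 CPM, a difference of -1.86 ± 0.28 (adjusted p = 0.00132) with no overlap. CCL5 was low throughout, at 0.316, 0.347 and 0.192 CPM against 1.51, 0.772 and 1.33 CPM (-2.07 ± 0.45, adjusted p = 0.0114). PTX3, a secreted pattern recognition protein, was at 16.04, 19.9 and 15.9 CPM against 34.1, 30.97 and 89.4 CPM (-1.57 ± 0.35, adjusted p = 0.019). In PTX3, 10 µM replicate 3 was far above the other 2 libraries, and the same library was highest for lymphotoxin beta, LTB (4.77, 4.16 and 3.69 CPM against 9.45, 9.55 and 17.1 CPM, -1.51 ± 0.30) and for the mitochondrial superoxide dismutase SOD2 (82.3, 81.7 and 76.2 CPM against 154, 131 and 270.4 CPM, -1.21 ± 0.20, adjusted p = 0.00313). The arms did not overlap in any of these genes, and without that library the differences were -0.92 for PTX3, -1.17 for LTB and -0.84 for SOD2. CXCL8, the neutrophil chemokine, had -0.55 ± 0.15 (adjusted p = 0.0334), and this call was lost in 7 of 15 alternative settings, among them without each combination library and without 10 µM replicate 1 or 3.

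In the other direction, the inflammasome product IL1B was higher in the combination, at 36.9, 40.4 and 33.9 CPM against 16.2, 17.8 and 25.03 CPM (0.92 ± 0.14, adjusted p = 0.00151). The siderophore-binding LCN2 was also higher, at 145, 135 and 144 CPM against 79.8, 83.9 and 93.6 CPM (0.72 ± 0.14, adjusted p = 0.0057), and both arms lay below its vehicle level of 316 ± 63.4 CPM. IL6 was not called (0.26 ± 0.14, adjusted p = 0.275). Without 10 µM replicate 3, 6 members of the list were lower and 2 higher. The counts fell to 3, 4 and 2 lower without combination replicates 1, 2 and 3, and stood at 7 with the GC offset, while IL1B and LCN2 stayed called higher in each of these settings.

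Of 19 tested regulators and targets of ATF4, 9 were called lower in the combination and 0 higher (median -0.61), beside 5.63% lower among all genes. Against vehicle, the combination had 8 members called lower (median -0.58), where 10.1% of all genes were lower. The 10 µM arm had 2 lower and 1 higher (median -0.12), beside 11.2% and 13% of all genes. Against 1.25 µM sorafenib, the list's median was -0.30 for the combination and 0.31 for 10 µM. ATF4 itself was not called, at 577, 540.2 and 547 CPM against 597, 664 and 765 CPM (-0.28 ± 0.14, adjusted p = 0.228). ATF4 is controlled mainly through translation of its mRNA, which RNA counts do not measure.

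ATF4 binds with C/EBP partners to sites of which TGATGNAA is a common form. This string, chosen after the results were seen, occurred on either strand in 3.67% of the 27305 promoters and in 1.87% of those of tested genes. It occurred in 4.21% of the 879 genes called lower, in 0.744% of the 269 called higher and in 3 of 19 ATF4-list genes (15.8%). No window of the interferon list held it, and 1 of 19 ATF4-list windows held the interferon response core. Promoters of 2 genes called lower are shown with the match in capitals, on whichever strand it lies.
ASNS (chr7:97872359-97872658, minus strand) has its match beginning 68 bases upstream of the start site.
ASNS: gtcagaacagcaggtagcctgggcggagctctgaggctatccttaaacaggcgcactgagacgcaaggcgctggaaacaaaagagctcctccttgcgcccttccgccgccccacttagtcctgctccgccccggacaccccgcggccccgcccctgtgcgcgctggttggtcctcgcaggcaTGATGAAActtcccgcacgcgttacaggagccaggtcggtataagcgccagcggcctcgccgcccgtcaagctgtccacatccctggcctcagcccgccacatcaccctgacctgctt
CHAC1 (chr15:40953221-40953520, plus strand) has its match beginning 209 bases upstream.
CHAC1: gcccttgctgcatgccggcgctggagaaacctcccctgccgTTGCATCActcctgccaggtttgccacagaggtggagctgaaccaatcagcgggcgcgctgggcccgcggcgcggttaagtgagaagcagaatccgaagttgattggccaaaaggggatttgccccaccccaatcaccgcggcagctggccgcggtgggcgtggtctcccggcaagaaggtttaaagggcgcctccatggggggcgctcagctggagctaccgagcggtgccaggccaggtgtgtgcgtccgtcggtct
The window of TRIB3 held no match to these letters.

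ASNS, asparagine synthetase (chr7:97852118-97872542, minus strand), is a classic ATF4 target. It was at 1.48, 2.24 and 1.34 CPM in the combination and 5.97, 4.92 and 13.9 CPM at 10 µM, with 5.07 ± 0.338 CPM in vehicle. The combination lay below every other library of the comparison, while 10 µM replicate 3 was the highest library of its arm. The log2 fold change was -2.28 ± 0.33 (adjusted p = 0.00099) and -1.70 without that library. CHAC1, which degrades glutathione, was at 16.4, 18.8 and 18.2 CPM against 35.3, 41.2 and 36.2 CPM, with a difference of -1.08 ± 0.15 (adjusted p = 0.000753), and here 10 µM replicate 3 lay between the other libraries of its arm. TRIB3, a pseudokinase that damps ATF4 and AKT signalling, was at 121, 138 and 117 CPM against 188, 192 and 324 CPM (-0.90 ± 0.18, adjusted p = 0.00754). The arms did not overlap in any of these 3 genes.

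The peptide hormone ADM2 (-0.84 ± 0.14), the ATF4 partner CEBPG (-0.76 ± 0.14), the tRNA exporter XPOT (-0.74 ± 0.15) and the stress-induced NUPR1 (-1.40 ± 0.32) were lower, as was SESN2, a leucine sensor that restrains mTORC1, at 21.8, 24.8 and 21.2 CPM against 38.9, 37.3 and 74.98 CPM (-1.15 ± 0.27, adjusted p = 0.0221). CTH and NIBAN1 completed the 9. Without 10 µM replicate 3 the differences were -0.60 for TRIB3, -0.48 for XPOT, -0.76 for SESN2 and -0.93 for NUPR1. The other 10 members were not called. DDIT3, the pro-apoptotic factor CHOP, was at 33.7, 31.5 and 36.6 CPM against 36.6, 29.2 and 89.7 CPM (-0.61 ± 0.36, adjusted p = 0.358), and GDF15, a secreted mark of mitochondrial stress, at 4.29, 3.97 and 5.61 CPM against 5.18, 3.67 and 19.01 CPM (-0.98 ± 0.47, adjusted p = 0.238). In both, the 10 µM arm overlapped the combination except for its replicate 3, and without that library the differences were 0.040 and 0.045. The list then had 6 members lower and a median of -0.37. It had 4 without combination replicate 1 or 3, 6 without combination replicate 2 and 6 with the GC offset (median -0.57). The list's median GC content was 56.7%.

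In serine, asparagine and proline synthesis 5 of 14 genes were lower and 1 higher (median -0.30), beside 5.63% and 2.06% of all genes. Besides ASNS the lower ones were the mitochondrial folate enzymes ALDH1L2 (29.3, 34.5 and 30.8 CPM against 57.8, 44.9 and 100.3 CPM, -1.10 ± 0.24) and MTHFD2 (171, 191 and 178 CPM against 250.4, 246 and 365 CPM, -0.68 ± 0.14) and the serine enzymes PHGDH (-0.47) and PSPH (-0.45). Proline enzyme PYCR3 was higher (0.46 ± 0.13, adjusted p = 0.0417), a call lost in 10 of 15 alternative settings. Among 13 amino acid transporters 3 were lower and 0 higher (median -0.34), beside the same shares of all genes. The glutamine carrier SLC38A1 was at 362, 357 and 352 CPM against 614, 601 and 537 CPM (-0.71 ± 0.09, adjusted p = 0.000464), with tight libraries in both arms. The cystine carrier SLC7A11 was at 48.2, 51.01 and 51.4 CPM against 80.2, 65.3 and 145 CPM (-0.95 ± 0.22, adjusted p = 0.019), and the cationic carrier SLC7A1 had -0.42. In SLC7A11 and ALDH1L2, 10 µM replicate 3 was the highest library, and without it the differences were -0.54 and -0.71. The SLC7A11 call was lost in 5 of 15 alternative settings.

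Of 20 cytosolic tRNA synthetases, which charge tRNAs for translation, 4 were lower and 0 higher (median -0.31): NARS1 (-0.58 ± 0.09), GARS1 (-0.49 ± 0.14), CARS1 (-0.48 ± 0.12) and TARS1 (-0.41 ± 0.10). In the ER unfolded protein response 2 of 21 were lower, a share to be read beside the 5.63% of all genes, the transcription factor XBP1 (-0.62) and its processing enzyme ERN1 (-0.74), with a median of -0.32. These medians were nearer 0, or above it, without 10 µM replicate 3. Without it the ER median was 0.04, with 1 gene lower, ERN1. The synthetases had 2 lower (median -0.10), the transporters 2 lower (-0.21) and the synthesis list 4 lower (-0.11). Without any 1 combination library, 1 transporter, 1 synthetase and 0 ER genes were called, and 2 to 3 synthesis genes. With the GC offset 4 genes were lower in each of the synthesis, transporter and synthetase lists and 1 in the ER list.

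**Figure D3:**
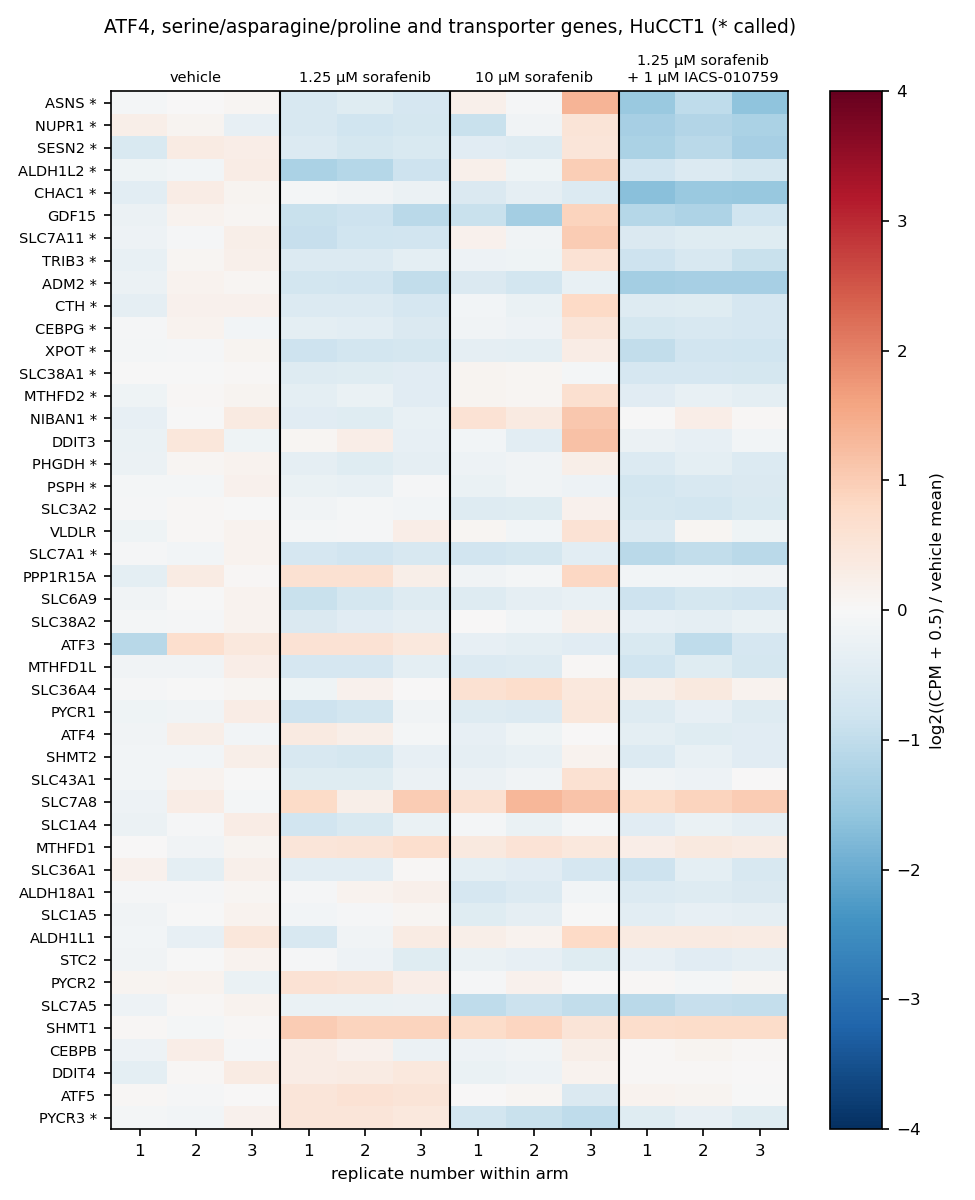
Level of ATF4, amino acid synthesis and transporter genes in the 12 HuCCT1 libraries, as log2 of (CPM + 0.5) relative to the vehicle mean, sorted by the difference between the combination and 10 µM sorafenib, with an asterisk for called genes. The 10 µM replicate 3 column is redder than its neighbours in most genes, and ASNS and CHAC1 are blue in all 3 combination columns.

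Keratins and mucins form the cytoskeleton and the surface coat of epithelial cells. Of 21 keratins and mucins, 9 were higher and 0 lower (median 0.38), where 2.06% of all genes were higher. In 11 all combination libraries lay above all 10 µM libraries, which held for 15.2% of all genes. Against vehicle, the list's median was -0.09 for the combination and -0.59 for 10 µM. Against 1.25 µM sorafenib, it was -0.02 for the combination and -0.40 for 10 µM. KRT17, a stress keratin, was at 51.5, 55.4 and 54.4 CPM against 26.7, 25.4 and 21.9 CPM, with 57.1 ± 3.52 CPM in vehicle (1.12 ± 0.10, adjusted p = 2.10e-05). MUC5AC, a gel-forming mucin, was at 55.1, 52.5 and 52.4 CPM against 27.4, 30.4 and 15.6 CPM (1.12 ± 0.17, adjusted p = 0.00162), below its vehicle level of 80.4 ± 5.57 CPM in both arms. The basal keratin KRT5 was at 7.07, 6.36 and 5.22 CPM against 1.76, 2.07 and 1.54 CPM (1.79 ± 0.21, adjusted p = 0.000211). None of these 3 genes overlapped between the arms, which the naming by rank required of KRT17 and MUC5AC.

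The wound keratins KRT6A (1.02 ± 0.16) and KRT16 (0.97 ± 0.16) were also higher, and unlike KRT17 both were above vehicle in the combination, by 0.71 and 0.69 on the log2 scale. The biliary keratin KRT19 (0.40), the transmembrane mucin MUC1 (0.48), KRT81 and MUC6 made up the 9. The list's median GC content was 58.1%. With the GC offset 5 remained called, namely KRT5, KRT17, MUC5AC, KRT6A and KRT16. Without 10 µM replicate 3, 7 were higher and 1, MUC16, was lower, and without combination replicate 1 or 3 the count was 5.

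STRA6, the cell surface receptor for retinol-binding protein (chr15:74179466-74212267, minus strand), had the largest rise named by rank. Its level was 24.6, 16.9 and 18.9 CPM in the combination and 5.72, 5.93 and 3.35 CPM at 10 µM, a difference of 1.99 ± 0.21 (adjusted p = 7.19e-05). Both arms lay below vehicle, at 48.9 ± 8.11 CPM, and the combination was near the 1.25 µM arm at 18.9 ± 3.17 CPM. In the retinoid list 3 of 18 were higher and 0 lower (median 0.26), beside 2.06% and 5.63% of all genes. Besides STRA6 these were DHRS3, a retinal reductase (148, 131 and 139.9 CPM against 68.5, 72.8 and 77.9 CPM, 0.93 ± 0.10, adjusted p = 5.16e-05), and the receptor RARG (0.48). STRA6 and DHRS3 were also called with the GC offset.

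MMP1, the interstitial collagenase (chr11:102789920-102798160, minus strand), differed from STRA6 in rising above every other arm. It was at 94.5, 109.8 and 116 CPM in the combination, 27.5, 27.7 and 28.7 CPM at 10 µM, 40.03 ± 11.6 CPM with 1.25 µM and 32.3 ± 6.71 CPM in vehicle (1.93 ± 0.18 against 10 µM, adjusted p = 3.86e-05, and 1.72 against vehicle). The metalloproteinase inhibitor TIMP1 (0.73) and the hemidesmosome integrin ITGB4 (0.38) were higher too, while integrin chains ITGAV (-0.65) and ITGB8 (-0.70) were lower. Thus 3 of 19 integrins and matrix proteases were higher and 2 lower (median -0.03), beside 2.06% and 5.63% of all genes. The ITGB4 call was lost in 6 of 15 alternative settings and those of TIMP1, ITGAV and ITGB8 in 3 each. With the GC offset 1 gene of this list was called higher, MMP1, and 0 lower.

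The other genes with the largest rises by rank had varied roles. The cytokine IL11 was at 14.7, 13.4 and 14.6 CPM against 5.90, 7.28 and 2.72 CPM (1.41 ± 0.25, adjusted p = 0.00344) and VIPR1, the receptor of vasoactive intestinal peptide, at 75.9, 66.5 and 73.1 CPM against 28.96, 36.9 and 17.4 CPM (1.37 ± 0.19, adjusted p = 0.00099). In both genes 10 µM replicate 3 was the lowest library. LTBP3, which stores latent TGF-beta in the matrix, was at 147, 130.3 and 137 CPM against 64.4, 60.5 and 56.3 CPM (1.19 ± 0.13, adjusted p = 7.19e-05), and PORCN, the acyltransferase needed for Wnt secretion, at 115, 108 and 116 CPM against 46.4, 54.7 and 47.9 CPM (1.19 ± 0.11, adjusted p = 2.23e-05). These 2 genes had tight libraries in both arms. The calcium-binding S100A2 (1.22 ± 0.12), the peptidylarginine deiminase PADI1 (1.42 ± 0.23) and ADPRHL1 (1.08 ± 0.20) completed the 12. TGFBI, a TGF-beta-induced matrix protein of high abundance, was at 897, 926 and 921 CPM against 486, 503 and 569 CPM (0.82 ± 0.12, adjusted p = 0.00132).

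Of the 12 largest falls named by rank, 6 lay outside the interferon and NF-kB lists, and in 4 of these 6 every 10 µM library was above every vehicle library. PEG10, a retrotransposon-derived imprinted gene, was at 253, 281 and 242 CPM against 575, 599.7 and 685 CPM, with 304 ± 68.8 CPM in vehicle (-1.26 ± 0.14, adjusted p = 0.000102). BCAT1, which starts the breakdown of branched-chain amino acids, was at 87.6, 92.1 and 76.4 CPM against 194, 175 and 222 CPM, with 134 ± 14.9 CPM in vehicle (-1.21 ± 0.12, adjusted p = 3.89e-05). ABI3BP, a matrix protein, was at 9.92, 10.3 and 8.76 CPM against 22.02, 16.7 and 41.2 CPM (-1.46 ± 0.26), and the ubiquitin ligase RNF144B had -1.24 ± 0.24. In the other two, every combination library was below every vehicle library and the 10 µM arm overlapped vehicle. The histone deacetylase HDAC9 was at 40.4, 45.1 and 37.4 CPM against 90.7, 77.4 and 134 CPM, with 84.6 ± 11.8 CPM in vehicle (-1.30 ± 0.16, adjusted p = 0.000478). The matrix protease ADAMTS9 was at 10.2, 10.1 and 10.4 CPM against 24.3, 25.2 and 31.2 CPM, with 22.8 ± 2.62 CPM in vehicle (-1.39 ± 0.12, adjusted p = 2.10e-05). The rule that named these 24 genes required arms that do not overlap, so that feature is not a finding for them.

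**Figure D4:**
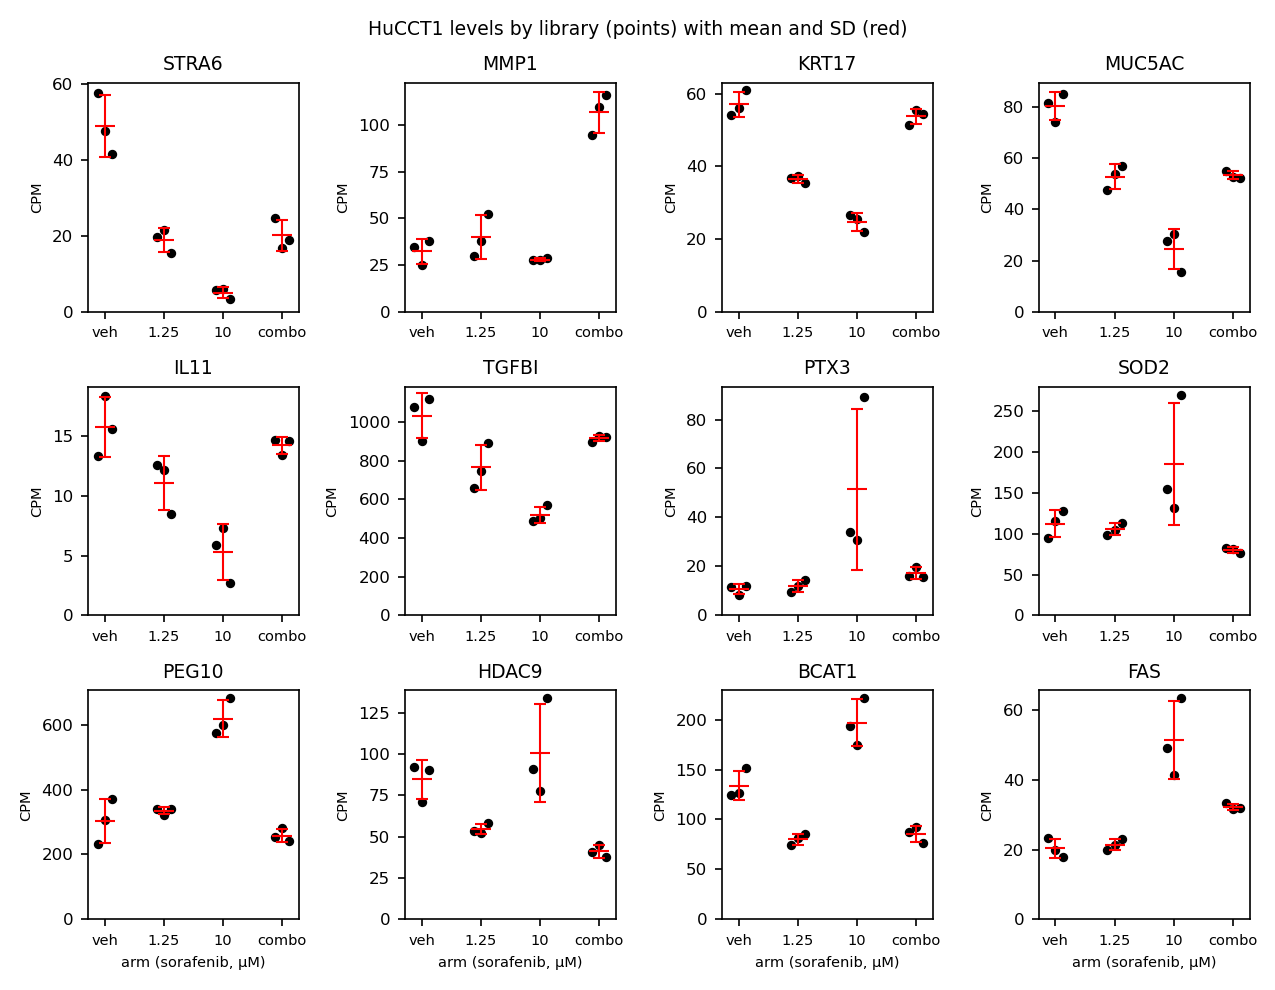
Level in CPM of 12 genes in each HuCCT1 library (points) with the mean and SD of the 3 libraries per arm (red), for vehicle, 1.25 µM sorafenib, 10 µM sorafenib and the combination. MMP1 is highest in the combination (94.5 to 116 CPM), STRA6 is lowest at 10 µM, and PTX3, SOD2 and HDAC9 are highest in 10 µM replicate 3.

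Respiratory chain genes lay mostly above 0, but few of them passed the test. The difference was above 0 in 30 of 37 nuclear-encoded complex I subunits, 17 of 18 ATP synthase subunits and 19 of 25 genes of the complexes between them. All combination libraries lay above all 10 µM libraries in 16, 8 and 14 of them, beside 15.2% of all genes. Of the 37 complex I subunits, 2 were called higher and 0 lower (median 0.26), beside 2.06% of all genes higher: NDUFA2, at 83.2, 73.6 and 74.2 CPM against 51.7, 63.6 and 47.3 CPM (0.51 ± 0.14, adjusted p = 0.0344), and NDUFB10 (0.46 ± 0.13, adjusted p = 0.0422). Both calls were lost without any 1 combination library, without 10 µM replicate 1 or 3, and with the GC offset, which called 1 other subunit, NDUFB5. Of 25 subunits of complexes II to IV 1 was lower, beside 5.63% of all genes. It was the electron carrier cytochrome c gene CYCS (-0.51 ± 0.13), a call lost in 6 of 15 alternative settings, the GC offset among them. Of 18 ATP synthase subunits edgeR called 0, with 5 higher at an unadjusted p under 0.05 and 2 called higher by DESeq2, and the GC offset called 1 higher. Of the 13 mRNAs encoded by mitochondrial DNA edgeR called 0, with a median of 0.27, and 0 passed an unadjusted p under 0.05 or DESeq2. In the TCA cycle 3 of 28 were lower, beside the same 5.63% of all genes. Among them were the phosphatase PDP1, which activates pyruvate dehydrogenase (-0.44), and the aspartate-glutamate carrier SLC25A13 (-0.49), whose call was lost in 7 of 15 alternative settings. The GC offset called 0 TCA cycle genes.

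In glycolysis 3 of 27 genes were higher and 1 lower (median 0.01), beside 2.06% and 5.63% of all genes. The same shares stand beside the hypoxia count below. The lactate exporter SLC16A3 was at 257, 239 and 249 CPM against 168, 183 and 149 CPM (0.58 ± 0.12, adjusted p = 0.00649), whereas SLC16A1, the monocarboxylate carrier more used for uptake, was at 89.5, 93.7 and 91.4 CPM against 132, 126 and 125 CPM (-0.48 ± 0.09, adjusted p = 0.00493). In both genes the arms did not overlap. PFKFB4 (0.58) and the glucose carrier SLC2A1 (0.55) were higher, but these calls were lost in 8 and 9 of 15 alternative settings. With the GC offset SLC16A1 was the 1 gene called in this list. Of 21 hypoxia genes outside glycolysis 2 were higher, VEGFA (261, 218 and 256 CPM against 168, 150.0 and 191 CPM, 0.53 ± 0.11) and ANGPTL4 (0.87), and 0 were called without combination replicate 1 or 3 or with the GC offset. TXNIP, the glucose-induced brake on glucose uptake, was not called, at 105, 97.2 and 94.8 CPM against 96.4, 85.2 and 147 CPM, and both arms were far below vehicle at 539.6 ± 84.1 CPM. Its relative ARRDC4 was lower in the combination (-0.66 ± 0.13, adjusted p = 0.00623).

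Proliferation genes stood above vehicle in both arms and also with 1.25 µM sorafenib alone, and few were called between the arms compared. Mitosis genes summed to 4240 to 4369 CPM with 1.25 µM and 1822 to 2460 CPM in vehicle. Their sums were 4506 to 4813 CPM in the combination and 2985 to 5436 CPM at 10 µM. DNA replication genes summed to 3124 to 3334 CPM with 1.25 µM and 1588 to 1904 CPM in vehicle. The combination had 2502 to 2713 CPM and 10 µM 2304 to 2917 CPM. The 30 mitosis genes had a median of 1.19 against vehicle in the combination and 1.10 at 10 µM, with 28 and 29 called higher, beside 9.94% and 13% of all genes. Between the arms 1 was called, the spindle checkpoint gene MAD2L1, at 56.8, 64.7 and 57.4 CPM against 106, 107 and 79.5 CPM (-0.71 ± 0.20, adjusted p = 0.0472), a call lost in 8 of 15 alternative settings. TOP2A, which untangles replicated DNA, was at 467, 505 and 454 CPM against 529, 571 and 318 CPM and was not called (0.01 ± 0.18). Here 10 µM replicate 3 was the lowest of the 6 libraries, and without it the list's median was -0.16 and 3 genes were lower, MAD2L1, CENPE and TTK. Of 40 DNA replication genes edgeR called 0 between the arms (median -0.05), 1 was higher and 3 lower at an unadjusted p under 0.05, and DESeq2 called 1 lower. Without 10 µM replicate 3, 3 were lower.

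The shares of all genes called, 2.06% higher and 5.63% lower, stand beside the counts of the remaining lists. Of 25 cholesterol genes 1 was lower, the sterol carrier STARD4 (78.98, 71.1 and 74.8 CPM against 117, 110.5 and 114 CPM, -0.60 ± 0.09, adjusted p = 0.00159). Of 22 MAPK feedback genes, which report on the pathway below RAF, 2 were higher, the ERK phosphatase DUSP4 (172, 179 and 171 CPM against 119, 121 and 93.7 CPM, 0.64 ± 0.14) and IER3 (0.54), and 1 was lower, SPRED1 (-0.38). Of 22 p53 targets 5 were lower, SESN2, the BH3-only gene PMAIP1 (-0.84 ± 0.13), the death receptor FAS (-0.67 ± 0.14), RRM2B (-0.60) and AEN (-0.37). The p53 list had 2, 3, 1 and 3 called without combination replicates 1, 2 and 3 and 10 µM replicate 1, and the MAPK list had 1 called higher and 0 lower in each of these settings. FAS was above vehicle in both arms, by 0.67 in the combination and 1.33 at 10 µM. Of 16 ERBB-family genes 3 were higher, the ligand AREG (756, 804 and 830.2 CPM against 509.5, 521 and 572 CPM, 0.58 ± 0.13) and the receptors ERBB2 (0.48) and ERBB3 (0.39). The NRF2 list of 23 genes holds targets together with the regulators NFE2L2 and KEAP1. In it 3 were higher, the quinone reductase NQO1 (0.55 ± 0.11), the regulator KEAP1 (0.45) and the exporter ABCC3 (0.42), and 1, SLC7A11, was lower. The KEAP1 and ABCC3 calls were lost in 7 and 6 of 15 alternative settings. Of 14 ABC transporters, which export drugs and lipids, 3 were higher, ABCC3, ABCC10 (0.43) and ABCG1 (1.38), and ABCC10 and ABCG1 lost their calls in 4 and 6 settings. With the GC offset 3 p53 targets were lower and 2 ERBB-family genes higher, NQO1 was the 1 NRF2 target called, 1 MAPK gene was higher, and 0 ABC transporters and 0 cholesterol genes were called.

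**Figure D5:**
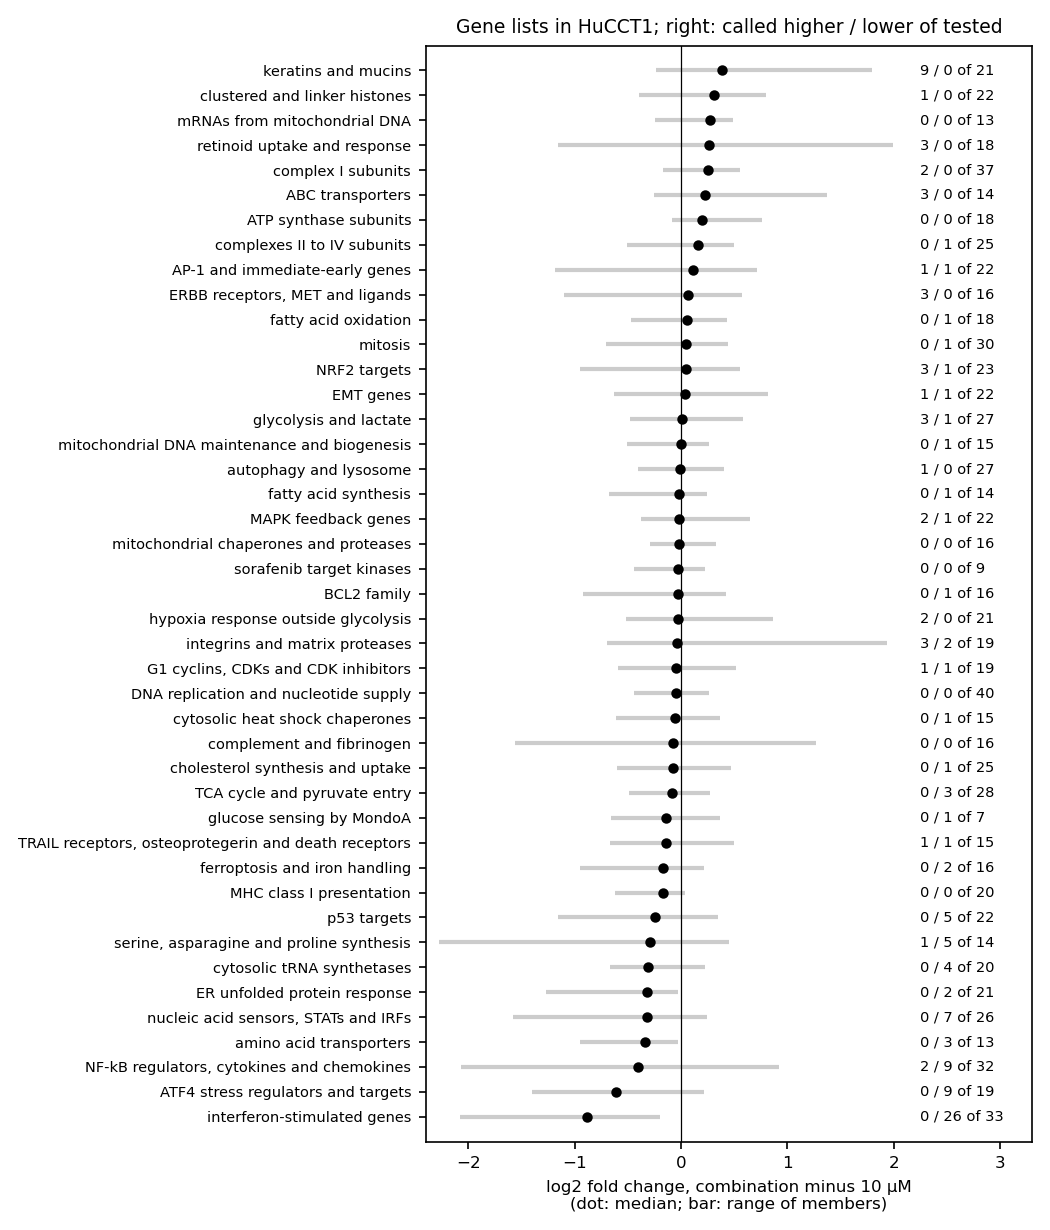
Median (dot) and range (bar) of the log2 fold change of the combination against 10 µM sorafenib over the tested members of 43 gene lists in HuCCT1, with the number called higher and lower at the right. Interferon-stimulated genes have the lowest median, with 26 of 33 called lower, and keratins and mucins the highest, with 9 of 21 called higher.

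The same contrast was made in OCUG-1, where 1077 of 20511 genes were called (5.25%), 651 higher (3.17%) and 426 lower (2.08%). There the interferon list had 1 of 30 genes higher and 0 lower (median -0.05), and the ATF4 list 2 of 19 higher and 0 lower (median 0.02). The test of the difference between lines, in a fit of 24 libraries, called 345 of 22944 genes (1.5%), 238 of them with a more negative difference in HuCCT1 than in OCUG-1 (1.04%) and 107 with a more positive one (0.466%). It called 8 interferon-list genes, all more negative in HuCCT1: CMPK2, RSAD2, IFIH1, OAS1, OAS3, IFIT2, SAMD9L and DTX3L. It called 7 of the ATF4 list, again all more negative in HuCCT1: CHAC1, ADM2, CEBPG, XPOT, TRIB3, SESN2 and STC2. STC2 was not called in HuCCT1 (-0.03 ± 0.18, adjusted p = 0.95) and was higher in OCUG-1 (0.67 ± 0.10, adjusted p = 0.00106). In OCUG-1, 3 of 18 keratins and mucins were called higher (median 0.26). OCUG-1 was grown in DMEM and HuCCT1 in RPMI, so the effects of line and of medium cannot be told apart. Leaving out 1 library moved the number of genes in this test to between 125 (without OCUG-1 combination replicate 3) and 543 (without OCUG-1 10 µM replicate 2), and to 143, 150, 184, 191 and 224 without OCUG-1 10 µM replicate 3, HuCCT1 combination replicates 1, 2 and 3 and HuCCT1 10 µM replicate 1.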

How the data were processed

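RNA-seq was done on 24 libraries, of which the 6 compared and the other HuCCT1 libraries (12 in all) were fitted together. The authors deposited raw read counts per Ensembl gene, in 1 table for each cell line. Per the submitters' processing notes, the tools included fastp 1.3.2, HISAT2 2.2.2, featureCounts of Subread 2.1.1 and DESeq2 1.42.1, with GRCh38. The sources used here give neither the annotation release nor the strand setting. Of 78724 gene IDs, 61481 were in the name table. Column names matched the labels.

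The test was edgeR's (version 4.0.16, R 4.3.3; quasi-likelihood test, robust, TMM scaling, filterByExpr with a minimum count of 10, Benjamini-Hochberg adjustment over all genes tested, called under 0.05). Levels are CPM scaled by TMM factors, and log2 fold changes are the combination minus 10 µM sorafenib. GC content is that of the longest GENCODE 29 transcript. DESeq2 1.42.0 was an alternative. List members were counted and not tested as sets, and the script was checked on simulated data. Genes and lists were chosen with earlier results of these data known. Named genes were the 12 largest rises and 12 largest falls among called protein-coding genes whose higher arm averaged 10 CPM or more and whose arms did not overlap, the 6 or fewer members of lowest adjusted p in each list with a called member, and a panel of stress, interferon and metabolic genes. A few genes that the rule names are not reported here. Replicate numbers were not used to pair the libraries in the main fit.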

Additional observations from a re-analysis of the deposited data

Results flagged for a closer look

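Among the 24 genes named by rank, 4 differed between the cell lines in the test of the difference itself (edgeR quasi-likelihood interaction term over 24 libraries, Benjamini-Hochberg over 22944 genes, of which 1.5% were called). STRA6, the retinol receptor, was higher in the combination by 1.99 in HuCCT1, and its difference between lines was 1.45 ± 0.23 (SE; adjusted p = 0.00126), with 0.55 ± 0.11 in OCUG-1. CMPK2 had a difference between lines of -2.08 ± 0.43 (adjusted p = 0.0115), with 0.02 ± 0.22 in OCUG-1. HDAC9 had -1.50 ± 0.19 (adjusted p = 8.12e-05), with 0.22 ± 0.10 in OCUG-1. PEG10 had -0.95 ± 0.17 (adjusted p = 0.00319), with -0.30 ± 0.11 in OCUG-1. The groups of 3 libraries are too small for a test of single outlying values.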

How the results depend on the processing

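None of the 1506 called genes changed direction in any alternative setting whose fit held it. This adds little, since the arms did not overlap in 1498 of them. Fewer kept their call: 401 (26.6%) were also called with the GC offset, and 453 (30.1%) without combination replicate 3. Counts of called genes were 1519 with DESeq2's size factors, 1214 with library size alone, 1508 without mitochondrial DNA genes, 1701 without a filter on low counts, 1897 with the 6 libraries alone and 2244 with DESeq2. Leaving out 1 library gave 453 to 1460 genes (116 to 395 higher, 337 to 1097 lower). For lists this range was 16 to 29 for interferon-stimulated genes, 2 to 8 for sensors, 0 to 0 for MHC class I, 4 to 11 for NF-kB, 0 to 3 for mitosis and for DNA replication, 4 to 10 for ATF4, 0 to 0 for mitochondrial mRNAs, 0 to 2 for complex I and for hypoxia, 2 to 3 for glycolysis, 1 to 3 for cholesterol and for MAPK, and 125 to 543 for the difference between lines. Library size alone left 0 mitosis genes. No filter gave 608 higher, 3 mitosis, 1 DNA replication and 3 cholesterol genes. The 6 libraries alone gave 2 MHC class I, 2 mitochondrial, 1 hypoxia and 4 cholesterol genes. DESeq2 gave 641 higher, 1 MHC class I, 2 mitosis, 1 DNA replication, 4 complex I and 3 cholesterol genes. The mitochondrial mRNA list has no value without mitochondrial DNA genes.

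Replicate numbers were tried as a block, although same-numbered libraries of the arms compared had a median correlation of -0.01 (-0.02 to 0.04), and 6 of 12 libraries correlated best with their own number. The replicate 3 libraries correlated at 0.40 between vehicle and 1.25 µM, 0.13 between 1.25 and 10 µM, and 0.11 between vehicle and 10 µM. Combination replicate 3 had -0.07, -0.05 and -0.02 with those of vehicle, 1.25 µM and 10 µM. Whether the number 3 marks a shared batch was not tested, and the labels do not say. The replicate block gave 1869 genes, 1 MHC class I and 2 cholesterol genes, and 320 genes for the difference between lines, against 345.

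A pair of settings was chosen after seeing the data. With replicate 3 of every arm left out, 3019 genes were called, 1097 higher and 1922 lower, with 2 MHC class I, 8 mitosis, 7 DNA replication, 3 mitochondrial, 5 complex I, 4 hypoxia and 10 cholesterol genes. The GC offset gave 463 genes, 147 higher and 316 lower, with 0 mitosis, 1 complex I, 1 glycolysis, 0 hypoxia, 0 cholesterol and 1 MAPK gene. The cause of these changes was not tested. Genes that were not called turned sign in places: with 1 library left out, TXNIP ran from -0.30 (without 10 µM replicate 2) to 0.12 (without 10 µM replicate 3), the gene GDF15 from -1.36 to 0.045, DDIT3 from -0.89 to 0.040 and TOP2A from 0.17 to -0.21 in the same settings. With replicate 3 of every arm left out TXNIP was 0.15 and TOP2A -0.18. With 3 libraries an arm, differences in genes of a few CPM such as CCL5 rest on few reads.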

Other observations

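Among genes picked after their values were seen, 4 that are known targets of the aryl hydrocarbon receptor, a ligand-activated transcription factor, were called higher in the combination, and 1 known target was not called. CYP1A1, the classic target enzyme, was at 6.03, 4.90 and 6.11 CPM in the combination and 0.534, 0.338 and 0.639 CPM at 10 µM (3.48 ± 0.26, SE, adjusted p = 5.63e-06), and OCUG-1 had 3.06 ± 0.30 (adjusted p = 3.78e-05). The related CYP1B1 was at 24.2, 21.3 and 20.05 CPM against 14.04, 11.4 and 6.87 CPM (1.01 ± 0.20, adjusted p = 0.00537), with 1.31 ± 0.29 in OCUG-1. The receptor's repressor AHRR had 1.64 ± 0.29 (adjusted p = 0.0031) and the target TIPARP 0.44 ± 0.12 (adjusted p = 0.034). The arms did not overlap in CYP1A1 or CYP1B1. The receptor AHR itself (-0.28 ± 0.12, adjusted p = 0.19) and the target ALDH3A1 (0.04 ± 0.28, adjusted p = 0.956) were not called.

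A further 3 genes known to respond to interferon were picked because they were called lower, so they say nothing of such genes outside the list in general. The chemokine CXCL11 was at 0.853, 0.925 and 1.04 CPM against 5.78, 4.34 and 5.11 CPM (-2.44 ± 0.22, adjusted p = 2.23e-05), the guanylate-binding protein GBP5 had -1.38 ± 0.28 (adjusted p = 0.00794) and PLSCR1 -0.91 ± 0.13 (adjusted p = 0.000753). The signal recognition particle RNA RN7SL1 was at 29.2, 14.8 and 35.6 CPM in the combination and 1.35, 1.83 and 0.533 CPM at 10 µM (4.39 ± 0.58, adjusted p = 0.00189). RN7SL1 was also picked after its values were seen, and the cause of its difference was not tested.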
